A study of Rattus norvegicus with 4 samples.

Results

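MicroRNA miR-484 is one of a pair, with miR-320-3p, that are known in the mouse to be made without Drosha, the nuclear enzyme that cuts most microRNA (miRNA) hairpins out of their primary transcripts. Both were named for counting by the first 18 nt of the mature form, and 1 of 2 named miRNAs is described. Tags of miR-320-3p were not searched for, so miR-320-3p is not analysed here and nothing is said of its reads. The cells were vascular smooth muscle cells of the aorta of Sprague-Dawley rats, and their small RNAs were sequenced. For all 4 libraries the labels give 10% fetal bovine serum and 48 h without serum. There was 1 library for each of 4 groups, namely untreated control cells and cells with angiotensin II (Ang II), a vessel-constricting hormone, at 100 nM for 1 h, 3 h and 24 h. The study asked how small RNAs with Ang II differed from the control. Of 675 distinct mature starts in the rat RefSeq table (build GRCr8), 400 had reads, and miR-484 was 1 of them with 170 reads over the 4 libraries.

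The libraries held 13119417 to 14534892 reads that name a sequence, and 68.4% to 74.4% of them began like a RefSeq mature miRNA. With 1 library per group no condition could be tested, the control carries no time of its own, and the hormone's effect cannot be told apart from that of time. All intervals are exact 95% intervals for counting error alone, and PCR copies are not independent molecules. The smooth muscle miRNA miR-143-3p led the libraries with 248197 to 309959 reads per 1000000 deposited reads (RPM), and miR-145-5p had 2216 to 2463 RPM. Of 5 blood markers, miR-142-5p, miR-144-3p and miR-223-3p had 0 reads in every library, miR-142-3p had 1 to 7 and miR-451-5p 2 to 6; the liver marker miR-122-5p had 1 to 3. Of 4 striated muscle markers, miR-1-3p had 96.7 to 119 RPM, miR-206-3p 21 to 38 reads, miR-133a-3p 1 to 11 reads and miR-208a-3p 0. The endothelial miR-126a-3p had 96.3 to 115 RPM and miR-126a-5p 8.53 to 12.2 RPM, the neural miR-9a-5p 31.6 to 43.8 RPM, and the epithelial miR-200c-3p 46 to 76 and miR-141-3p 0 to 8 reads. In such bulk RNA, fewer cells of a type and less RNA per cell cannot be told apart.

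A canonical miRNA is cut by Drosha in the nucleus and again by Dicer in the cytoplasm, and 1 strand is then held by an Argonaute protein, where bases 2 to 8, the seed, find target mRNAs. In the mouse miR-484 and miR-320 need Dicer but not Drosha, and mirtrons avoid Drosha in another way, since their hairpins are short introns released by splicing. The 3' end of a miRNA can be shortened, and enzymes of the terminal nucleotidyl transferase family can add U or A to it; such added bases are absent from the hairpin. Among its known targets, miR-484 acts on Fis1, a gene of mitochondrial fission, in cardiac muscle cells. The RefSeq sequences below show the seed of miR-484 in capitals in the mature form, and the whole mature stretch in capitals in the hairpin, since all reads were set against that hairpin.
miR-484: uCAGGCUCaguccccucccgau
Mir484 hairpin: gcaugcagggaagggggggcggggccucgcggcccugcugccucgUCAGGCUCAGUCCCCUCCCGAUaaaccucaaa

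In build GRCr8 the hairpin lies at chr10:1394905-1394981 and the mature form at chr10:1394915-1394936, on the minus strand. It overlaps no other gene of the RefSeq table, where Nde1 and Marf1 are its nearest neighbours. The mature form takes bases 46 to 67 of the 77 in this hairpin, which leaves 10 bases after it against which 3' ends could be read. Its seed is shared with 2 other RefSeq entries, miR-344-5p (uCAGGCUCcuggcuagauuccagg) and miR-344a-5p (uCAGGCUCcuggcuagauu), which are counted together by their common start. These had 0 reads in all 4 libraries, so miR-484 alone carried this seed among the reads assigned.

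miR-484 was scarce at every time. It had 47 reads in untreated cells, 35 after 1 h of Ang II, 53 after 3 h and 35 after 24 h. On the scale of all deposited reads the control level was 3.26 RPM (2.40 to 4.34). With Ang II it was 2.67 RPM after 1 h (1.86 to 3.71), 3.69 RPM after 3 h (2.76 to 4.82) and 2.41 RPM after 24 h (1.68 to 3.35). The 3 h library was highest and the 24 h library lowest, and the intervals of all 4 overlapped. By mean RPM miR-484 ranked 204 of 400 miRNAs with reads. The next above it were miR-331-3p, miR-501-3p and miR-3075, and the next below miR-201-5p, miR-326-3p and miR-582-3p, with means from 2.86 to 3.29 RPM for all 7.

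Relative to the control, the level of miR-484 was 0.817-fold at 1 h (0.512 to 1.29), 1.13-fold at 3 h (0.748 to 1.71) and 0.738-fold at 24 h (0.462 to 1.17). Each interval includes 1, so no difference from the control was detectable at this depth, and changes inside these intervals could not have been seen. Between successive times the ratio was 1.38 for 3 h over 1 h (0.885 to 2.18) and 0.653 for 24 h over 3 h (0.413 to 1.02). The log2 ratios with 1 RPM added to both levels were -0.22 at 1 h, 0.14 at 3 h and -0.32 at 24 h. Over the 168, 170 and 172 miRNAs with 100 reads in either library the medians were -0.10, -0.06 and -0.25. Over the 72, 72 and 67 miRNAs with 20 to 99 reads in the higher library they were -0.004, 0.002 and -0.18. The added 1 RPM draws the ratios of scarce miRNAs more toward no change than those of well-read ones.

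A miRNA was called higher or lower past 1.5-fold on that log2 scale with 100 reads in the higher library, a minimum that miR-484 did not reach, so 0 of 1 was called. With that limit 2.38% of miRNAs were called higher and 2.38% lower at 1 h, 4.12% higher and 4.12% lower at 3 h, and 5.23% higher and 16.9% lower at 24 h. The split depended on the scaling. At 24 h it was 9 higher and 29 lower, but 12 and 12 with TMM factors and 12 and 11 with median-of-ratios factors, where the median log2 ratio was -0.03 and -0.01. At 1 h it was 4 and 4, but 6 and 3 with either, and per 1000000 miRNA reads it was 3 and 9 at 1 h, 5 and 14 at 3 h and 9 and 43 at 24 h. Among miRNAs with 20 to 99 reads, the depth class of miR-484, the same fold was passed upward by 4 of 72 at 1 h, 6 of 72 at 3 h and 3 of 67 at 24 h, and downward by 0, 4 and 9. miR-484 was not among them at any time.

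**Figure D1:**
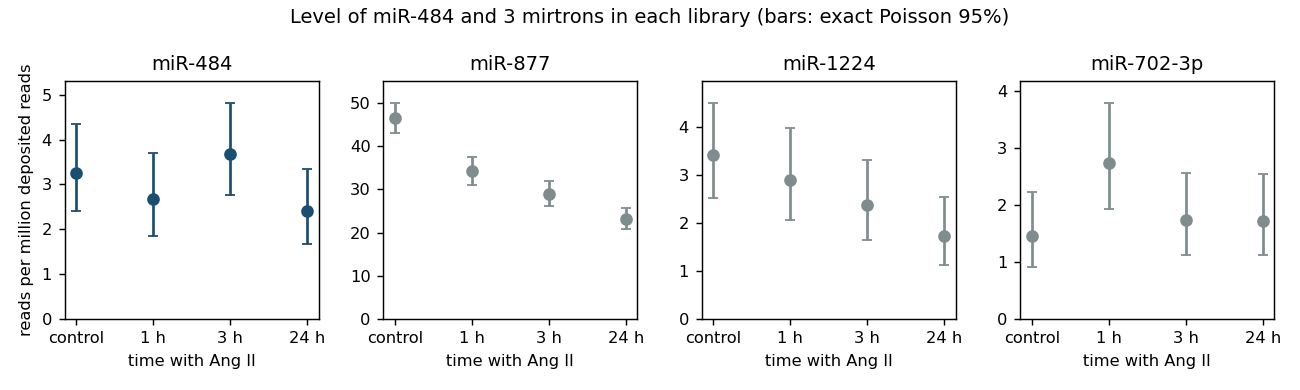
Level in RPM (vertical axis, a scale of its own in each panel, starting at 0) of miR-484 and of the mirtrons miR-877, miR-1224 and miR-702-3p in the 4 libraries (horizontal axis, control and time with Ang II); points are single libraries and bars exact Poisson 95% intervals. The 4 intervals of miR-484 overlap, whereas miR-877 stands at 23.1 RPM at 24 h against 46.5 RPM in the control.

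By the Euclidean distance of centred log2(RPM + 1) values over the 4 libraries, the miRNA most like miR-484 among 173 with 100 reads in any library was miR-15b-3p, at a distance of 0.09. It had 30.1 RPM in the control and, with Ang II, 25.2 RPM after 1 h, 30.5 after 3 h and 22.5 after 24 h. The others were miR-6324 (0.12), miR-872-5p (0.14), miR-128-3p (0.14) and miR-101b-3p (0.16). In all 5, as for miR-484, the 24 h library was the lowest and the 1 h library the next lowest. The 5 were picked by likeness to miR-484 over these same libraries, so the shared order largely follows from that choice. All these orders are of 4 single libraries.

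The 170 reads all began at the annotated first base, as the match requires. Of tags starting 1 or 2 nt before or after it on the hairpin, 1 read was found, at 3 h, and it began 1 nt further in. No read of 18 nt or more came from the rest of the hairpin, a count of 0 that allows up to 3 reads, or 0.206 to 0.229 RPM, in a library; the exact upper bound of the 95% interval is 0.254 to 0.281 RPM. A further 12 reads differed from miR-484 by 1 base in the first 18 nt, 6.59% of the reads so found (3.45% to 11.2%), beside a median of 7.92% over 225 miRNAs with 100 reads. This share measures misread and other near sequences together.

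Under this match the 5' end was largely fixed and the 3' end was free to vary, so their variety was not compared. The 170 reads came from 45 distinct tags, 29 of them read once, and only 4 tags ran along the hairpin to their last base. Those 4 held 84 reads and the other 41 tags held 86, so 50.6% of miR-484 reads (42.8% to 58.3%) left the hairpin sequence before their end. The tags below are the most read, with T standing for the U of the RNA, hairpin sequence in lower case, and the bases from the first departure onward in capitals.
mature: tcaggctcagtcccctcccgat
mature and 1 base: tcaggctcagtcccctcccgata
mature less 1 base: tcaggctcagtcccctcccga
added T: tcaggctcagtcccctcccgatT
A in place of the end: tcaggctcagtcccctcccgaAA
T and A: tcaggctcagtcccctcccgTA
T after 20 nt: tcaggctcagtcccctcccgTT
T after 19 nt: tcaggctcagtcccctcccTTT
T after 18 nt: tcaggctcagtcccctccTTTTT

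The mature sequence itself had 9 reads in untreated cells and 9, 14 and 11 reads with Ang II for 1 h, 3 h and 24 h, which is 25.3% of all miR-484 reads (19.0% to 32.5%). The form 1 base longer had 10 reads in untreated cells and 6, 5 and 1 with Ang II. Its share was 2.86% at 24 h (0.0723% to 14.9%) against 21.3% in the control (10.7% to 35.7%), intervals that overlap. Its last A is also the next base of the hairpin and the first base of the 3' adapter, so a longer cut, an added A and an adapter base cannot be told apart. The form 1 base shorter had 8 reads in untreated cells and 4, 5 and 1 with Ang II. In lengths, 66 reads had 22 nt and 67 had 23 nt, together 78.2%, while 1 read passed 26 nt.

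Reads with an end outside the hairpin sequence numbered 20 of 47 in untreated cells, then 16 of 35, 28 of 53 and 22 of 35 with Ang II. As shares these were 42.6% in the control (28.3% to 57.8%), 45.7% after 1 h (28.8% to 63.4%), 52.8% after 3 h (38.6% to 66.7%) and 62.9% after 24 h (44.9% to 78.5%). The control was lowest and the 24 h library highest, with overlapping intervals. Without tags read once in a library the share was 25.0% in the control, 13.6% after 1 h, 41.5% after 3 h and 50.0% after 24 h, so the level depends on these rare tags and the 1 h library was then lowest. With every base past the mature end counted as added, the shares were 63.8% in the control, 62.9% after 1 h, 62.3% after 3 h and 65.7% after 24 h. The order of the libraries then no longer followed time, and 3 h was lowest.

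**Figure D2:**
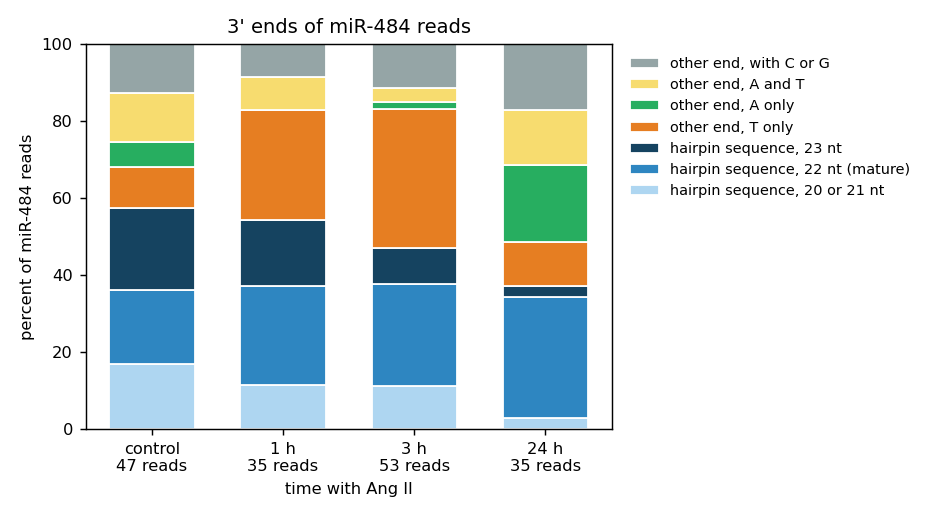
Percent of miR-484 reads (vertical axis) in each library (horizontal axis, with its number of reads) by the form of the 3' end; blue shades end within the hairpin sequence and the other colours leave it, by the bases they carry. The mature 22 nt form holds 19.1% of control reads and 25.7%, 26.4% and 31.4% after 1 h, 3 h and 24 h.

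In 64 of the 86 reads the departure came before the last mature base, where a shortened end with other bases added and a changed base in a longer read cannot be told apart. It came after base 21 in 23 reads, after base 20 in 21, after base 19 in 13 and after base 18 in 7, and departures within the first 18 bases could not be seen with this match. The departing ends held 203 bases, of which 53.7% were T, 33.0% A, 6.90% G and 6.40% C. They were T alone in 38 reads, A alone in 11, A with T in 16 and held C or G in 21. In 5 reads the end equalled the first bases of the adapter. A total of 42 reads, or 24.7% (18.4% to 31.9%), differed from the hairpin at 2 or more bases.

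Ends of T alone made up 10.6% of miR-484 reads in the control (3.55% to 23.1%), 28.6% after 1 h (14.6% to 46.3%), 35.8% after 3 h (23.1% to 50.2%) and 11.4% after 24 h (3.20% to 26.7%). These were 5, 10, 19 and 4 reads in that order of times, and the most read of them, the mature form with 1 added T, had 2, 3, 10 and 3. The 1 h and 3 h libraries were high and the control and 24 h libraries low. The 3 h interval began just above the end of that of the control, both 23.1% when rounded, and the other intervals overlapped. Without tags read once in a library the shares were 5.56% in the control (0.680% to 18.7%), 13.6% after 1 h (2.91% to 34.9%), 41.5% after 3 h (26.3% to 57.9%) and 13.6% after 24 h (2.91% to 34.9%), so the 1 h library no longer stood above the 24 h library. Over 191 miRNAs the median share of T ends was 1.93% in the control and 1.67%, 1.72% and 2.14% after 1 h, 3 h and 24 h.

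Ends of A alone had another order. They were 3 reads in the control (6.38%, 1.34% to 17.5%), 0 of 35 at 1 h, which allows a share of up to 8.57% by 3 counts and 10.0% by the exact interval, 1 at 3 h (1.89%, 0.0478% to 10.1%) and 7 at 24 h (20.0%, 8.44% to 36.9%). At 24 h 6 of the 7 were the tag that ends in AA after base 21, against 2 reads of it in the control. This tag of 23 nt differs from the hairpin at 1 base, since its last A equals the hairpin base there. Added A and a changed base in the 23 nt hairpin form cannot be told apart in it. Median shares of A ends over the 191 miRNAs lay between 2.63% and 3.18%. With reads this few, neither order was tested.

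**Figure D3:**
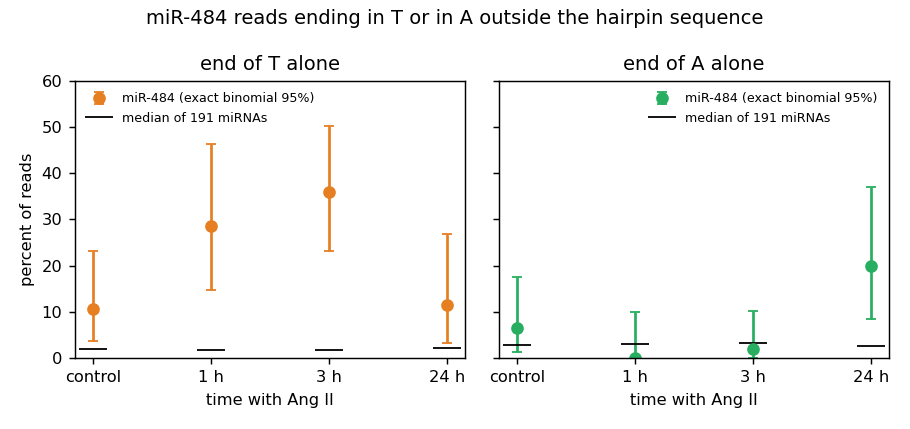
Percent of reads (vertical axis) whose end outside the hairpin sequence is T alone (left) or A alone (right) in each library (horizontal axis); coloured points are miR-484 with exact binomial 95% intervals, black dashes the median of 191 miRNAs. T ends stand at 28.6% and 35.8% at 1 h and 3 h, and A ends are highest at 24 h with 20.0%.

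Set among the 191 miRNAs that had 100 reads over the 4 libraries and at least 4 hairpin bases past the mature end, miR-484 ranked 15 by the share of ends outside the hairpin sequence. The median share was 11.7%, with quartiles of 6.09% and 25.3%. It ranked 8 of 45 miRNAs with 100 to below 300 reads, whose median was 14.2%, and 13 of 191 by the share of T ends. For ends with 2 or more differing bases it ranked 8 of 191, at 24.7% beside a median of 1.75%. Leaving out tags read once in a library kept 121 of the 170 miR-484 reads. The share was then 33.1% (24.8% to 42.2%) and the rank 29, beside a median of 8.63%. Without ends that equal the adapter start miR-484 had 49.1% and rank 12, beside 7.66%.

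**Figure D4:**
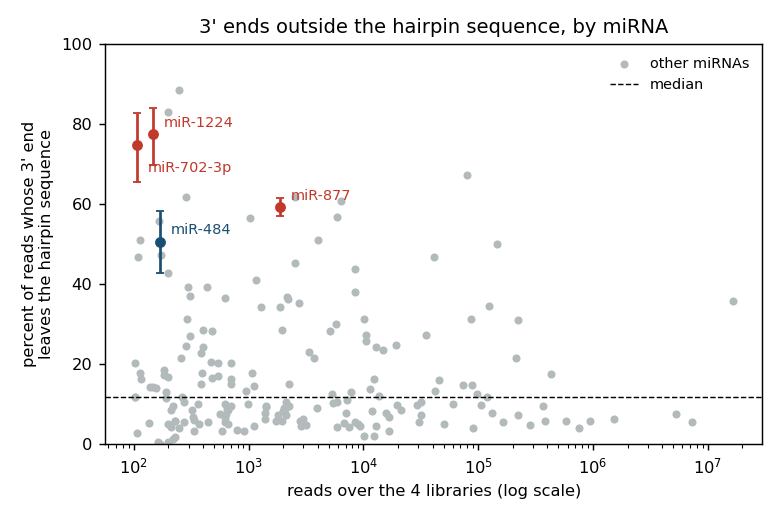
Percent of reads whose 3' end leaves the hairpin sequence (vertical axis) against reads over the 4 libraries (horizontal axis, log scale) for 191 miRNAs; blue is miR-484, red the 3 mirtrons, bars exact binomial 95% intervals and the dashed line the median. miR-484 at 50.6% and the mirtrons at 59.3% to 77.4% stand above the median of 11.7%.

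A list of other miRNAs made outside the usual pathway was set beside miR-484. It held the mirtrons miR-877, miR-1224 and miR-702, and miR-451, whose hairpin is cut by Drosha and then by Argonaute 2 in place of Dicer. The 3 mirtron arms with 100 reads ranked 3 (miR-1224), 4 (miR-702-3p) and 9 (miR-877) of 191 by the share of ends outside the hairpin sequence. This share was 77.4% of 146 reads for miR-1224 (69.7% to 83.9%), 74.8% of 107 reads for miR-702-3p (65.4% to 82.7%) and 59.3% of 1870 reads for miR-877 (57.0% to 61.5%). The miR-702-5p arm had 10 of 24 reads with such ends, and miR-451-5p 0 of 16, which allows a share of up to 18.8% by 3 counts and 20.6% by the exact interval; miR-451-3p had 0 reads. With tags over 26 nt left out, miR-484 had 50.3%, beside 55.6% for miR-1224, 54.7% for miR-877 and 74.5% for miR-702-3p.

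The kind of end differed among these. Of the bases in departing ends T made up 53.7% for miR-484, against 79.6% for miR-702-3p, 51.9% for miR-1224 and 33.2% for miR-877. A made up 33.0% for miR-484, against 14.0% for miR-702-3p, 42.5% for miR-1224 and 51.9% for miR-877. In miR-877, 266 of 1108 such reads had an end equal to the start of the adapter. The tags below are the most read of each mirtron and, for miR-1224, its most read departing tag with the 2 above it, again with departing bases in capitals. The tags that lead miR-877 and miR-1224 follow the hairpin to their last base, so the departing reads of these 2 are spread over less read tags. These leading tags have 24 nt, against RefSeq mature forms of 20 nt for miR-877 and 21 nt for miR-1224. The miR-1224 labels below count from its leading tag, not from the mature form.
miR-702-3p: tgcccaccctttaccccactccagT
miR-1224: gtgaggactggggaggtggagggt
miR-1224 less 1 base: gtgaggactggggaggtggaggg
miR-1224, added T: gtgaggactggggaggtggagggtT
miR-877: gtagaggagatggcgcaggggaca

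The tag with 1 T added to the whole mature form was 18 of 170 reads for miR-484. The miR-702-3p tag shown, 60 of 107 reads, runs to ag, the bases that close most introns, and has 1 T more. It had 13 reads in untreated cells and 16, 18 and 13 with Ang II for 1 h, 3 h and 24 h.

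In level, miR-877 was the single one of this list with 100 reads in a library. It had 669 reads in untreated cells and 449, 416 and 336 after 1 h, 3 h and 24 h, which is 46.5, 34.2, 28.9 and 23.1 RPM. The order followed time, with the control highest, and it was past 1.5-fold lower at 3 h (ratio 0.623, 0.550 to 0.705) and at 24 h (0.497, 0.435 to 0.568), where 4.12% and 16.9% of miRNAs were called lower. With TMM factors it was still past that limit at both times, with log2 ratios of -0.62 and -0.75, and 6.98% of miRNAs were called lower at 24 h. miR-1224 had 49, 38, 34 and 25 reads in the same order of times, a ratio of 0.505 at 24 h (0.299 to 0.834). miR-702-3p had 21, 36, 25 and 25 reads. The ratio was 1.88 at 1 h (1.07 to 3.39), 1.19 at 3 h (0.641 to 2.24) and 1.18 at 24 h (0.634 to 2.22). At 1 h 4 of 72 miRNAs with 20 to 99 reads were past 1.5-fold higher. Neither miR-1224 nor miR-702-3p had the 100 reads needed for a call. For miR-484 the interval at 24 h, 0.462 to 1.17, holds the ratios of both miR-877 and miR-1224 as well as 1, so at this depth it can be set neither with nor apart from them.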

How the data were processed

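The authors deposited, for each of the 4 libraries, a headerless file of the raw count of reads of every distinct sequence (tag); the counts are not normalized. Per the labels' protocols, libraries were made from 0.5 ug of total RNA with 12 PCR cycles and RNA of 17 to 52 nt was selected on a gel. The submitters' processing notes name Novoalign and rn4, with no role; trimming and filtering are not given in the sources used here. A row that names no sequence (5.13% to 7.07% of reads) was left out. Tags have 16 to 42 nt.

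Tags were assigned by identity of the first 18 nt with a RefSeq mature sequence (build GRCr8); entries with the same start were counted together. Sums were scaled to 1000000 reads that name a sequence. The members and lists were chosen with earlier results of these data known. Each tag was then read along the hairpin from the mature start to the first differing base. Named miRNAs are miR-484, the list of other non-canonical miRNAs, the 5 nearest in pattern and 3 neighbours in level on each side. Counts have exact Poisson, shares exact Clopper-Pearson and ratios exact conditional binomial intervals at 95%. No test between groups was made. Alternatives were other scalings, pseudocounts, read minimums, fold limits, reference libraries and tag matches. For 3' ends they were leaving out tags read once in a library, long tags or adapter-like ends, and counting every base past the mature end as added. The reading of 3' ends and the calls were tested on simulated data. The changed miRNAs there had far more reads than miR-484, and each added end departed from the hairpin at its first base. Neither the depth of miR-484 nor an added base equal to the hairpin was tried. Python 3.11.15, scipy 1.17.1, numpy 2.4.6, matplotlib 3.10.9 and, for TMM factors, edgeR 4.0.16 in R 4.3.3 were used.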

Additional observations from a re-analysis of the deposited data

How the results depend on the processing

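With 1 library per group no replicate could be left out. No paired analysis was possible because no group has a second library. The alternatives for miR-320-3p were not run. The log2 ratio of miR-484 to the control stayed inside its counting interval under every alternative run. A call was not possible under any of them, since no library reached 100 reads of miR-484. It ran from -0.39 to 0.05 at 1 h, 0.05 to 0.29 at 3 h and -0.48 to 0.11 at 24 h. Counting the mature sequence alone put miR-484 above the control at 1 h (0.05) and 24 h (0.11), on 9 to 11 reads. With the 1 h library as reference in place of the control, the log2 ratio was 0.35 at 3 h and -0.11 at 24 h. With the 3 h library as reference it was -0.46 at 24 h. Without tags read once in a library, the share of miR-484 ends outside the hairpin sequence moved past its interval in the control (25.0%) and at 1 h (13.6%). So did ends of T alone at 1 h (13.6%) and of A alone at 3 h (0%). With every base past the mature end counted as added, the share outside the hairpin sequence moved past its interval in the control (63.8%). For miR-877 the lower call at 3 h was lost with 10 RPM added (log2 ratio -0.54) and those at 3 h and 24 h with the mature sequence alone (-0.99 and -0.89), on 11 and 13 reads against 36; its direction was the same in all.

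Counts of called miRNAs depended on the settings. Higher ones numbered 4, 7 and 9 at 1 h, 3 h and 24 h, but 8 and 13 at 1 h and 3 h with 20 reads, 13 and 13 with no minimum, and 3 at 24 h with a 2-fold limit. Lower ones numbered 4, 7 and 29, but 9 and 14 at 1 h and 3 h per 1000000 miRNA reads, 12 and 11 at 24 h with TMM and median-of-ratios factors, 0, 2 and 4 with a 2-fold limit, and 1, 4 and 13 with 10 RPM added. At 3 h they numbered 11 with 20 reads and 12 with no minimum.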

Other observations

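Ends outside the hairpin sequence were frequent for some miRNAs that are cut by Drosha as well. They made up 88.6% of 245 reads of let-7f-1-3p (83.9% to 92.3%), 82.9% of 199 reads of miR-760-3p (77.0% to 87.9%), 67.2% of 80425 reads of let-7i-5p (66.9% to 67.5%) and 61.8% of 2554 reads of miR-214-3p (59.9% to 63.7%). These were named after their values were seen, as 4 of the 14 miRNAs that ranked above miR-484 by this share. For let-7i-5p, ends of A alone made up 48.6% of reads. A is also the first base of the 3' adapter, so in an end of 1 A an added base and an adapter base cannot be told apart.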
